A study of Danio rerio with 4 samples.

Results

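Translation initiation factors are the proteins that bring the ribosome, the initiator tRNA and an mRNA together at the start codon. Their genes were taken as the rows whose Ensembl identifier carries a zebrafish symbol that begins with eif and a digit, the eif2ak kinases being left out. This gave 62 of the 28290 gene models in the table, of which 61 passed the filter on low counts. The series sequenced poly-A RNA of whole embryos of wild-type zebrafish (*Danio rerio*), in 2 libraries from embryos kept in 8 µg/L SYP-3343, a compound known here by its code, and in 2 libraries from untreated embryos (control). Embryos were in the compound between 3 and 24 hours after fertilization, and 40 embryos are mentioned without saying whether per library or in all. The series' title sets the question as harm to development through reactive oxygen species and mitochondria. The labels call the libraries of a group biological replicates without naming clutches or tanks, so the spread that the p-values rest on may be technical.

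The factor eIF2 carries the initiator tRNA to the small ribosomal subunit as a complex with GTP, and the exchange factor eIF2B reloads it after each round. Stress kinases phosphorylate the alpha subunit of eIF2, which blocks eIF2B, lowers most protein synthesis and favours a few mRNAs such as that of ATF4. The large complex eIF3 holds the small subunit and the mRNA together. The cap of the mRNA is bound by eIF4E, which joins the scaffold eIF4G and the helicase eIF4A, and the eIF4E-binding proteins, which the kinase mTORC1 switches off, compete with eIF4G for eIF4E.

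The libraries held 49075203 and 49962016 counts with SYP-3343 and 46165614 and 59054470 counts in controls. Levels are given as counts per 1000000 counts (CPM). Across genes, log2 CPM gave r = 0.995 for both libraries of either group, against 0.978 to 0.979 for pairs of an exposed and a control library. In the exposed libraries 14.5% and 15.3% of all counts fell on the 20 most abundant genes, against 10.1% and 10.2% in controls. CPM values carry TMM factors, a scaling that sets most genes to no change, of 0.923 and 0.86 for SYP-3343 and of 1.11 and 1.14 for controls. Of 35 markers of neural, muscle, blood, skin, notochord, germ and eye cells 26 matched a symbol, 23 had at least 1 CPM in every library and 0 were at 0 in all libraries. The lowest were germ cell markers, which summed to 7.49 and 7.05 CPM with SYP-3343, against 5.61 and 4.91 CPM in controls. Of the 26 matched markers 8 were called higher and 2 lower, where 16.2% of all genes tested were called higher and 14.8% lower. Epidermal markers, mostly *krt4*, summed to 10810 and 11720 CPM with SYP-3343 and to 6271 and 6177 CPM in controls. Of that list *krt4* (log2 fold change 0.94), *krt5* (0.49) and *epcam* (0.68) were called higher, while *cdh1* (0.20) and *TP63* (0.23) did not pass. The call of *krt5* ended with library sizes alone. Muscle markers, of which 2 of 5 matched, summed to 9123 and 11360 CPM with SYP-3343 and to 6470 and 6742 CPM in controls. Nearly all of that was *actc1b*, while *MYOD1* (0.10) did not pass. The call of *actc1b* ended with the replicate number as a block and on leaving out either control library. The sums for notochord, mostly *ntd5*, were 82.0 and 84.3 CPM with SYP-3343 and 44.1 and 41.1 CPM in controls, while *tbxta* (0.23) did not pass. Neural markers summed to 539.9 and 623 CPM with SYP-3343 and to 361 and 461 CPM in controls. Of these *SOX3* (0.95) and *neurog1* (1.96) passed, while *ELAVL3* (0.36) and *SOX2* (-0.08) did not. Blood markers summed to 3237 and 3806 CPM with SYP-3343 and to 3209 and 2765 CPM in controls. Lens and eye markers, with 1 higher and 2 lower, summed to 506 and 581 CPM with SYP-3343 and to 629.6 and 546 CPM in controls, which overlap. The part of these cell types in the results was not tested. In RNA from whole embryos a change in the number of cells of a type and a change in RNA per cell cannot be told apart.

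Most initiation factor genes were higher in exposed embryos, and the genes for subunits of eIF2B, eIF2 and eIF3 led. With edgeR's quasi-likelihood test, 37 of the 61 tested members (60.7%) rose at an adjusted p under 0.05, 3 (4.92%) fell and 21 did not pass. Of all 22647 genes tested, 31.0% passed, 16.2% as higher and 14.8% as lower in SYP-3343. The median log2 fold change, SYP-3343 over control, was 0.40 for the members and -0.01 for all genes. The change reached 1.5-fold for 23 of the risers and 1 of the fallers, and 2-fold for 10 members, all of them risers. How many of all genes reached these sizes was not counted, so these numbers do not set the members apart from other genes. The counts depended on the scaling. When library sizes alone set the scale, the median of all genes moved to -0.35 from -0.01, and 23 members were higher and 16 lower. Of all genes tested, 6.05% were then higher and 40.2% lower. The members' median was 0.42 above that of all genes under either scaling. A change of scaling shifts all genes by nearly the same amount, so this sameness was given in advance. All 23 of those risers were among the 37. The plot of log2 fold changes sets both scalings side by side.

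**Figure D1:**
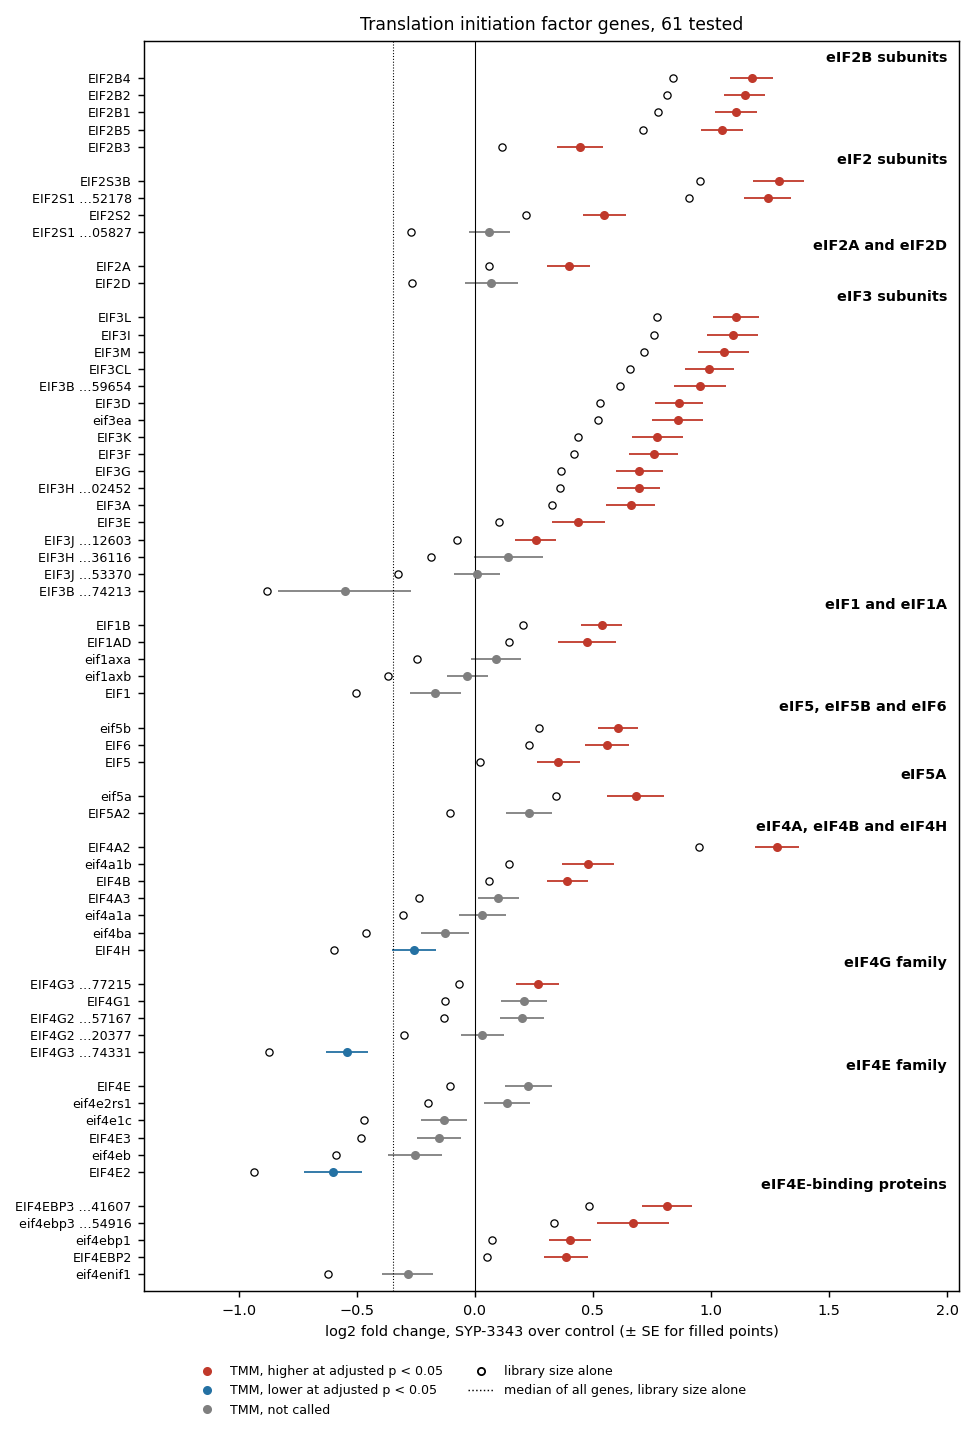
Log2 fold change, SYP-3343 over control, for the 61 tested initiation factor genes, by factor group, with the SE for TMM scaling (filled points) and the value with library sizes alone (open points). Digits after a symbol are the end of its Ensembl identifier, given where several genes share it; the dotted line is the median of all genes with library sizes alone (-0.35), and 37 filled points are higher calls and 3 lower calls.

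The genes for all 5 subunits of the eIF2B complex, the exchange factor for eIF2, were higher, with a median log2 fold change of 1.11. These are counts of mRNA, and the amount of the complex was not measured. *EIF2B4* (ENSDARG00000014004), the delta subunit, had 123 and 112 CPM in the SYP-3343 libraries, against 53.5 and 50.8 CPM in the controls. This was a log2 fold change of 1.17 ± 0.09 (SE, n = 2 per group; adjusted p = 3.80e-08). *EIF2B2* (ENSDARG00000041397), the beta subunit, had 118.9 and 113 CPM with SYP-3343 and 54.6 and 50.7 CPM in controls (1.14 ± 0.09, adjusted p = 4.08e-08). *EIF2B1* (ENSDARG00000091402), the alpha subunit, had 63.3 and 60.3 CPM with SYP-3343 and 28.6 and 28.9 CPM in controls (1.11 ± 0.09, adjusted p = 7.94e-08). The mRNA of these subunits thus stood at 2.15-fold to 2.25-fold of the control level. *EIF2B5* (ENSDARG00000074995), the epsilon subunit with the catalytic domain, had 63.2 and 60.02 CPM with SYP-3343 and 29.9 and 29.8 CPM in controls (1.05 ± 0.09, adjusted p = 1.48e-07). *EIF2B3* (ENSDARG00000018106), the gamma subunit that pairs with epsilon, had a smaller fold change, with 45.3 and 41.2 CPM with SYP-3343 and 32.9 and 30.7 CPM in controls (0.45 ± 0.10, adjusted p = 0.00203). Its counts were 0.123 and 0.119 of the summed counts of the other 4 subunits with SYP-3343 and 0.197 and 0.192 of them in controls. No scaling enters that ratio, gene length cancels between groups, and the groups do not overlap. The ratio was chosen after the values were seen. The call of *EIF2B3* ended with library sizes alone (adjusted p = 0.424, 0.000379 to 0.424 over its alternatives), where the other 4 calls held.

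Of the 4 genes for eIF2 subunits 3 rose. The gamma subunit binds GTP and the initiator tRNA, and its gene *EIF2S3B* (ENSDARG00000008292) had 992 and 1020 CPM with SYP-3343, against 426 and 399 CPM in controls. This was the largest rise among the members (log2 fold change 1.29 ± 0.11, adjusted p = 1.25e-07), or 2.44-fold. The alpha subunit, on which the stress kinases act, has a pair of genes under the symbol *EIF2S1*, and they differed. *EIF2S1* copy ENSDARG00000052178 had 451 and 488 CPM with SYP-3343 and 206 and 192 CPM in controls (1.24 ± 0.10, adjusted p = 7.12e-08). *EIF2S1* copy ENSDARG00000005827 had 54.4 and 51.5 CPM with SYP-3343 and 51.5 and 49.9 CPM in controls (0.06 ± 0.09, 95% interval -0.12 to 0.25, adjusted p = 0.638), and its groups overlap. This copy was called lower with library sizes alone (-0.27, adjusted p = 0.0381, 0.0381 to 0.961 over its alternatives), while the other copy stayed higher. *EIF2S2* (ENSDARG00000053047), the beta subunit, had 284 and 283 CPM with SYP-3343 and 200 and 188 CPM in controls (0.55 ± 0.09, adjusted p = 0.000229). The ratio of *EIF2S2* to *EIF2S3B* counts was 0.286 and 0.277 with SYP-3343 and 0.469 and 0.470 in controls. The summed counts of eIF2B genes, in contrast, were 0.232 and 0.210 of those of eIF2 genes with SYP-3343 and 0.226 and 0.231 of them in controls, and these ranges overlap.

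**Figure D2:**
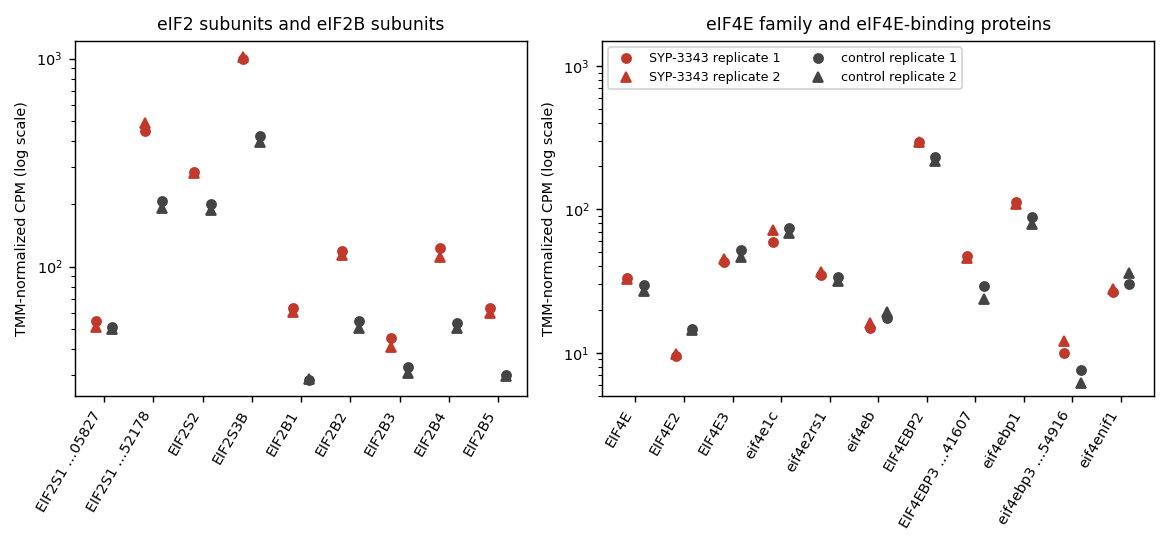
TMM-normalized CPM (log scale) in each library for the genes of eIF2 and eIF2B (left) and of the eIF4E family and the eIF4E-binding proteins (right), with SYP-3343 in red and control in grey; circles are replicate 1 and triangles replicate 2. All eIF2B genes and 3 of 4 eIF2 genes lie higher with SYP-3343, as do the 4 genes for binding proteins, whereas *EIF4E2* lies lower. By less, *eif4enif1*, *eif4eb* and *EIF4E3* also lie lower and *EIF4E* and *eif4e2rs1* higher, none of them called with TMM factors.

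A pair of factors can bring the initiator tRNA to the ribosome without eIF2 under some conditions. *EIF2A* (ENSDARG00000101061), a separate protein and not the alpha subunit, had 50.7 and 55.8 CPM with SYP-3343 and 41.0 and 39.9 CPM in controls (0.40 ± 0.09, adjusted p = 0.00295). *EIF2D* (ENSDARG00000012929) had 17.7 and 18.6 CPM with SYP-3343 and 16.7 and 17.8 CPM in controls, which overlap (0.07 ± 0.11, adjusted p = 0.676). The call of *EIF2A* ended with library sizes alone (adjusted p = 0.619, 0.00134 to 0.619 over its alternatives).

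Of 17 genes for eIF3 subunits 14 rose, 0 fell and 3 did not pass, with a median log2 fold change of 0.76. DESeq2 and an unadjusted p under 0.05 also gave 0 falls. The octamer that forms the body of the complex includes the subunits a, c, e, f, h, k, l and m, while b, g and i form a module reaching the mRNA path. The largest rise within eIF3 was that of *EIF3L* (ENSDARG00000101082), with 446 and 471 CPM with SYP-3343 and 217 and 209 CPM in controls (1.11 ± 0.10, adjusted p = 2.05e-07). *EIF3I* (ENSDARG00000017445) had 554 and 627 CPM with SYP-3343, against 292 and 262 CPM in controls (1.09 ± 0.11, adjusted p = 7.55e-07). *EIF3M* (ENSDARG00000013931) had 491 and 575 CPM with SYP-3343 and 267 and 246 CPM in controls (1.05 ± 0.11, adjusted p = 1.20e-06). Every one of the 3 was more than 2-fold higher. *EIF3CL* (ENSDARG00000016443), which encodes the c subunit, had 716 and 753 CPM with SYP-3343 and 360 and 378 CPM in controls (0.99 ± 0.10, adjusted p = 1.63e-06). *EIF3B* copy ENSDARG00000059654 had 878 and 978 CPM with SYP-3343 and 489 and 471 CPM in controls (0.95 ± 0.11, adjusted p = 4.89e-06).

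The genes for other subunits that passed had smaller fold changes. *EIF3D* (ENSDARG00000021257), a subunit that can bind the cap itself on some mRNAs, rose 1.82-fold (0.86 ± 0.10, adjusted p = 5.97e-06). The genes *eif3ea* (0.86 ± 0.11), *EIF3K* (0.77 ± 0.11), *EIF3F* (0.76 ± 0.10), *EIF3G* (0.70 ± 0.10) and *EIF3H* copy ENSDARG00000102452 (0.69 ± 0.09) spanned adjusted p-values of 1.36e-05 to 4.53e-05. *EIF3A* (ENSDARG00000076815), the largest subunit, had 764 and 784 CPM with SYP-3343 and 481 and 499 CPM in controls (0.66 ± 0.10, adjusted p = 0.000128). Those 12 genes kept their calls under every alternative, library sizes alone included. *EIF3E* (ENSDARG00000002549) rose to 18.1 and 19.6 CPM with SYP-3343, against 14.0 and 13.8 CPM in controls (0.44 ± 0.11, adjusted p = 0.00669). Its call ended without SYP-3343 replicate 2 (adjusted p = 0.0683) and with library sizes alone (adjusted p = 0.514), over a range of 0.00511 to 0.514.

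Subunit j, which is loosely bound and acts in start site selection and recycling, has a pair of genes. *EIF3J* copy ENSDARG00000012603 had 73.4 and 77.0 CPM with SYP-3343 and 65.1 and 60.6 CPM in controls (0.26 ± 0.09, adjusted p = 0.0331). That call ended with upper-quartile factors (adjusted p = 0.110), with library sizes alone (adjusted p = 0.514), and without control replicate 2 (0.168), SYP-3343 replicate 1 (0.0666) or SYP-3343 replicate 2 (adjusted p = 0.204). *EIF3J* copy ENSDARG00000053370 had 35.6 and 37.8 CPM with SYP-3343 and 38.5 and 34.5 CPM in controls, which overlap (0.01 ± 0.10, 95% interval -0.20 to 0.22, adjusted p = 0.960). This copy was called lower with library sizes alone (-0.32, adjusted p = 0.0199), as was *EIF3B* copy ENSDARG00000074213 (-0.88, adjusted p = 0.024). The second copies of *EIF3B* and *EIF3H*, with low counts, did not pass with TMM. *EIF3B* copy ENSDARG00000074213 had 88 and 64 counts with SYP-3343, against 105 and 199 in controls (-0.55 ± 0.28, adjusted p = 0.151). *EIF3H* copy ENSDARG00000036116 had 12.0 and 9.06 CPM with SYP-3343 and 9.58 and 9.53 CPM in controls (0.14 ± 0.15, adjusted p = 0.503).

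**Figure D3:**
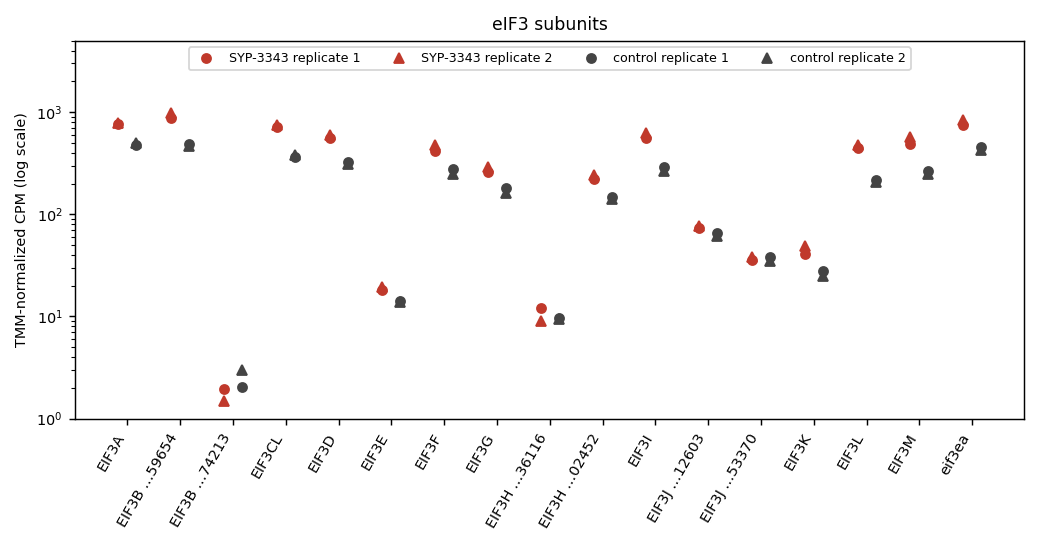
TMM-normalized CPM (log scale) of the 17 genes for eIF3 subunits in each library, SYP-3343 in red on the left of each gene and control in grey on the right; circles are replicate 1 and triangles replicate 2. The 12 genes called under every alternative show clear gaps between the groups, while both *EIF3J* copies and *EIF3H* copy ENSDARG00000036116 lie close together.

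Genes for factors of scanning and of the joining of the subunits rose in part. *EIF1* and its relative *EIF1B* guard the choice of start codon. *EIF1B* (ENSDARG00000029445) had 105 and 110 CPM with SYP-3343 and 77.3 and 70.5 CPM in controls (0.54 ± 0.09, adjusted p = 0.00017). *EIF1* (ENSDARG00000012688) had 380 and 424 CPM with SYP-3343 and 484 and 419 CPM in controls, which overlap (-0.17 ± 0.11, 95% interval -0.40 to 0.06, adjusted p = 0.26). *EIF1B* lost its call with library sizes alone (adjusted p = 0.071, 3.98e-07 to 0.071 over its alternatives), where *EIF1* was called lower (-0.50, adjusted p = 0.000425, 0.000425 to 0.806 over its alternatives). Of the genes for eIF1A, which works beside eIF1, *eif1axa* (0.09 ± 0.11, adjusted p = 0.573) and *eif1axb* (-0.03 ± 0.09, adjusted p = 0.821) did not pass, and library sizes alone made *eif1axb* lower (-0.37, adjusted p = 0.00298). *EIF1AD* (ENSDARG00000016280), named for a domain like that of eIF1A, had 16.8 and 14.5 CPM with SYP-3343 and 11.4 and 11.1 CPM in controls (0.47 ± 0.12, adjusted p = 0.00706). Its call ended without SYP-3343 replicate 1 (adjusted p = 0.0909) and with library sizes alone (adjusted p = 0.427), over a range of 0.00409 to 0.427.

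All 3 genes for eIF5, eIF5B and eIF6 rose. *eif5b* (ENSDARG00000016548), a GTPase that joins the ribosomal subunits, had 120 and 121 CPM with SYP-3343 and 76.9 and 81.2 CPM in controls (0.61 ± 0.09, adjusted p = 3.92e-05). *EIF6* (ENSDARG00000020232), which keeps the large subunit from joining too early and acts in its assembly, had 57.4 and 54.0 CPM with SYP-3343 and 40.3 and 35.4 CPM in controls (0.56 ± 0.10, adjusted p = 0.000235). *EIF5* (ENSDARG00000003681), which makes eIF2 hydrolyse its GTP, had 243 and 254 CPM with SYP-3343 and 198 and 191 CPM in controls (0.35 ± 0.09, adjusted p = 0.00689). The calls of *EIF6* (adjusted p = 0.0896, 7.06e-07 to 0.0896) and *EIF5* (adjusted p = 0.855) ended with library sizes alone, and that of *EIF5* also ended without SYP-3343 replicate 2 (adjusted p = 0.056, 0.000248 to 0.855 over its alternatives). The factor eIF5A carries the modified residue hypusine and also serves elongation. *eif5a* (ENSDARG00000017235) had 1464 and 1682 CPM with SYP-3343 and 1015 and 948 CPM in controls (0.68 ± 0.12, adjusted p = 0.000383). *EIF5A2* (ENSDARG00000056186) had 417 and 442 CPM with SYP-3343 and 371 and 362 CPM in controls (0.23 ± 0.10, adjusted p = 0.0879), and DESeq2's Wald test called it higher (adjusted p = 0.0218, 0.0218 to 0.344 over its alternatives).

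Among the genes for factors at the mRNA cap, calls went both ways, where 16.2% of all genes tested were called higher and 14.8% lower. Of 7 genes for the helicase eIF4A and its cofactors eIF4B and eIF4H, 3 rose, 1 fell and 3 did not pass, with a median log2 fold change of 0.10. *EIF4A2* (ENSDARG00000016477) had 96.1 and 84.3 CPM with SYP-3343, against 37.6 and 36.9 CPM in controls (1.28 ± 0.09, adjusted p = 1.97e-08), which was 2.42-fold and the smallest adjusted p of all members. The related helicase *eif4a1b* (ENSDARG00000003032) had 745 and 832 CPM with SYP-3343 and 589 and 542 CPM in controls (0.48 ± 0.11, adjusted p = 0.00318). *eif4a1a* (ENSDARG00000092115) had 493 and 510 CPM with SYP-3343 and 490.5 and 491.1 CPM in controls (0.03 ± 0.10, 95% interval -0.18 to 0.24, adjusted p = 0.85). *EIF4A3*, a helicase of the exon junction complex rather than of initiation (0.10 ± 0.09, adjusted p = 0.427), and *eif4ba* (-0.12 ± 0.10, adjusted p = 0.377) did not pass. *EIF4B* (ENSDARG00000010194) rose to 184 and 181 CPM with SYP-3343, against 138 and 140 CPM in controls (0.39 ± 0.09, adjusted p = 0.00243). *EIF4H* (ENSDARG00000042252) fell to 104 and 121 CPM with SYP-3343, against 137 and 132 CPM in controls (-0.26 ± 0.09, adjusted p = 0.0437). The fall of *EIF4H* lost its call with RLE factors (adjusted p = 0.0549), with the replicate number as a block (adjusted p = 0.0555), and without control replicate 1 (0.116) or replicate 1 of SYP-3343 (adjusted p = 0.424), over a range of 0.000127 to 0.424. The calls of *EIF4B* (adjusted p = 0.601) and *eif4a1b* (adjusted p = 0.161) ended with library sizes alone, whereas *EIF4A2* kept its call, and *eif4a1a* (-0.30), *EIF4A3* (-0.23) and *eif4ba* (-0.46) were called lower.

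In the scaffold family eIF4G, 1 of 5 genes rose, 1 fell and 3 did not pass. With 16.2% of all genes tested called higher and 14.8% lower, these counts do not set the family apart. The pair under the symbol *EIF4G3* went opposite ways. *EIF4G3* copy ENSDARG00000074331 had 41.4 and 41.1 CPM with SYP-3343 and 58.1 and 61.9 CPM in controls (-0.54 ± 0.09, adjusted p = 0.000179). *EIF4G3* copy ENSDARG00000077215 had 79.4 and 89.6 CPM with SYP-3343 and 67.9 and 72.5 CPM in controls (0.27 ± 0.09, adjusted p = 0.034). The fall held under every alternative. The rise ended with upper-quartile factors (adjusted p = 0.108), with library sizes alone (-0.07, adjusted p = 0.561), and without control replicate 1 (0.129) or replicate 2 of SYP-3343 (adjusted p = 0.340). *EIF4G1* (ENSDARG00000006200) had 351 and 356 CPM with SYP-3343 and 290 and 323 CPM in controls (0.21 ± 0.10, adjusted p = 0.123). *EIF4G2*, a relative that lacks the site for eIF4E, did not pass in copy ENSDARG00000057167 (0.20 ± 0.09, adjusted p = 0.118) or in copy ENSDARG00000020377 (0.03 ± 0.09, adjusted p = 0.83). DESeq2's Wald test called the first of these copies higher (adjusted p = 0.0444) and library sizes alone made the other lower (-0.30, adjusted p = 0.00895).

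Among the cap-binding proteins of the eIF4E family, 0 of 6 tested genes rose and 1 fell, with a median log2 fold change of -0.14. Of all genes tested 16.2% were called higher and 14.8% lower, so counts from 6 genes do not set the family apart. DESeq2 also gave 0 rises and 1 fall, and an unadjusted p under 0.05 gave 1 gene above and 2 below 0. *EIF4E2* (ENSDARG00000038585), whose product binds the cap without eIF4G and represses translation in mammals, had 9.45 and 9.80 CPM with SYP-3343, against 14.8 and 14.5 CPM in controls (-0.60 ± 0.12, adjusted p = 0.00116). It fell under every alternative (adjusted p 0.000105 to 0.00592). Its relative *eif4e2rs1* had 35.0 and 36.8 CPM with SYP-3343 and 33.7 and 31.6 CPM in controls (0.14 ± 0.10, adjusted p = 0.308). *EIF4E* (ENSDARG00000077012), a gene for the cap-binding factor that has *eif4eb* as its related pair, had 33.4 and 32.4 CPM with SYP-3343. It had 29.5 and 26.7 CPM in controls (0.23 ± 0.10, adjusted p = 0.0962). The genes *eif4eb* (-0.25 ± 0.11, adjusted p = 0.103), *EIF4E3* (-0.15 ± 0.09, adjusted p = 0.241) and *eif4e1c* (-0.13 ± 0.10, adjusted p = 0.346) did not pass. These last 3 were called lower with library sizes alone (-0.59, -0.48 and -0.47), and upper-quartile factors also called *eif4eb* lower (-0.32, adjusted p = 0.038). *EIF4E1B*, a form known from the germ line, was the member not tested, with 0 and 4 counts with SYP-3343 and 3 and 0 counts in controls. A count of 0 allows up to 3 counts, which is 0.0508 to 0.065 CPM of the unscaled libraries, and such limits cover counting error only.

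All 4 genes for eIF4E-binding proteins, the brakes on cap-dependent initiation, rose. *EIF4EBP3* copy ENSDARG00000041607 had 47.3 and 45.9 CPM with SYP-3343 and 29.2 and 23.8 CPM in controls (0.82 ± 0.11, adjusted p = 1.79e-05). *eif4ebp3* (ENSDARG00000054916), its second copy, had 9.89 and 12.0 CPM with SYP-3343 and 7.61 and 6.19 CPM in controls (0.67 ± 0.15, adjusted p = 0.00274). *eif4ebp1* (ENSDARG00000043608) had 113 and 108 CPM with SYP-3343 and 89.1 and 78.7 CPM in controls (0.40 ± 0.09, adjusted p = 0.00253). *EIF4EBP2* (ENSDARG00000031819) had 294 and 295 CPM with SYP-3343 and 233 and 218 CPM in controls (0.39 ± 0.09, adjusted p = 0.0046). The call of *EIF4EBP3* copy ENSDARG00000041607 held with library sizes alone, and those of *eif4ebp3* (adjusted p = 0.0941), *eif4ebp1* (adjusted p = 0.561) and *EIF4EBP2* (adjusted p = 0.634) ended. The summed counts of these 4 genes were 2.39 and 2.18 times those of the 7 eIF4E family genes with SYP-3343, against 1.62 and 1.58 times in controls. That ratio rests on no scaling and was 1.43-fold higher with SYP-3343, without overlap of the groups. It was chosen after the values of these genes were seen, so it is no separate support for them, and it leaves out *eif4enif1*. *eif4enif1* (ENSDARG00000016177), which carries eIF4E into the nucleus and into RNA granules, had 26.5 and 27.9 CPM with SYP-3343 and 30.1 and 36.1 CPM in controls (-0.28 ± 0.11, adjusted p = 0.0558). It was called lower with upper-quartile factors (adjusted p = 0.0185), with library sizes alone (adjusted p = 0.00107), with robust dispersions (adjusted p = 0.047) and without control replicate 1 (adjusted p = 0.00548, 0.00107 to 0.441 over its alternatives).

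**Figure D4:**
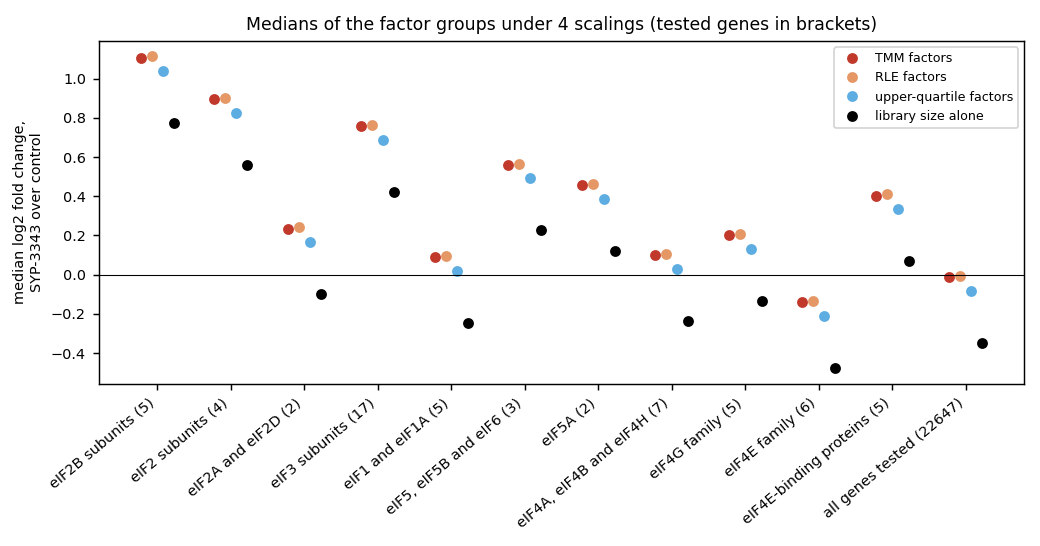
Median log2 fold change, SYP-3343 over control, of each group of initiation factor genes and of all 22647 genes tested, under TMM, RLE and upper-quartile factors and with library sizes alone. Library sizes alone lower each median; those of eIF2B (0.78), eIF2 (0.56) and eIF3 (0.42) are then the highest, and that of all genes lies at -0.35.

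Zebrafish keep related pairs for many of these factors, and the share of a pair's counts that each gene takes needs no scaling. With 2 libraries against 2, an exact two-sided permutation test cannot give a p under 0.333, so the shares are given without a test. Each of the 15 pairs is shown by the gene with the larger fold change, so the direction of its shift is set by that choice. *EIF2S1* copy ENSDARG00000052178 took 89.2% and 90.5% of the pair's counts with SYP-3343, against 80.0% and 79.3% in controls. *EIF4G3* copy ENSDARG00000077215 took 65.7% and 68.6% of its pair with SYP-3343 and 53.9% and 54.0% in controls. *eif4e2rs1* took 78.7% and 79.0% of the counts it shares with *EIF4E2* with SYP-3343 and 69.5% and 68.6% in controls. *EIF1B* took 21.7% and 20.5% beside *EIF1* with SYP-3343 and 13.8% and 14.4% in controls. These 4 pairs had the largest shifts in mean log2 ratio after the *EIF3B* copies (1.485), and *eif1axa* with *eif1axb* had the smallest (0.120). The 4 are thus not typical of the 15 pairs. In each of the 4 the shift was larger than the gap between the libraries of either group. *EIF4EBP3* copy ENSDARG00000041607, by contrast, took 82.7% and 79.2% of its pair with SYP-3343 and 79.3% and 79.4% in controls, which overlap. Reads of related genes may be split between them in the authors' counting, which bears on every share.

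**Figure D5:**
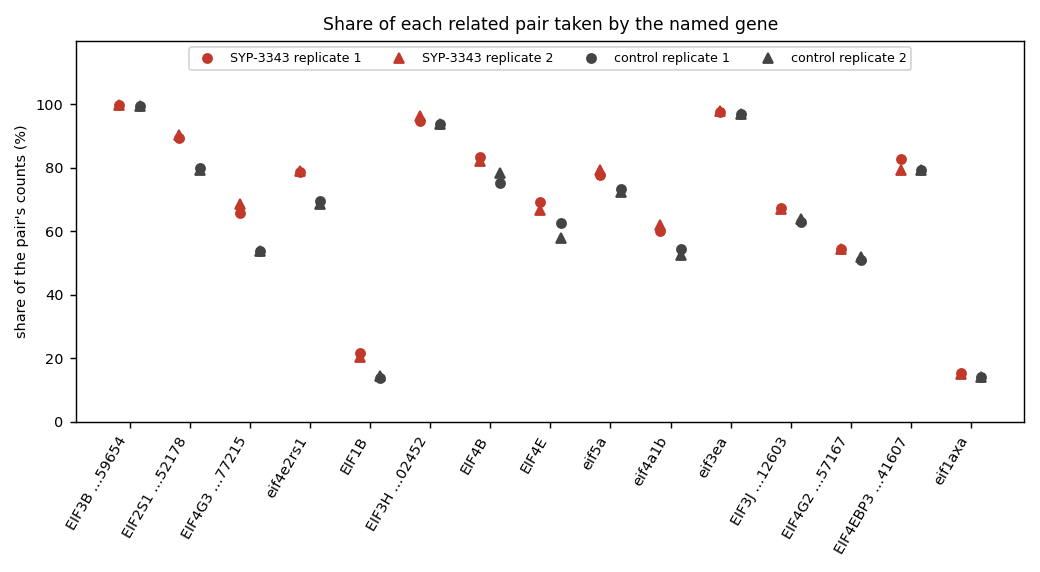
Share (%) of the summed counts of 15 related pairs taken by the gene named on the axis, the one with the larger log2 fold change, in each library; SYP-3343 is red on the left of each pair and control grey on the right, circles are replicate 1 and triangles replicate 2. *EIF2S1* copy ENSDARG00000052178 sits at 89.2% and 90.5% with SYP-3343 and at 80.0% and 79.3% in controls.

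Genes that act on these factors were counted in lists, and the values after names are log2 fold changes. Of all genes tested 16.2% were called higher and 14.8% lower, and the counts of every list here and below stand beside these shares. Of 12 genes of the eIF2 kinases, their partners and the phosphatase subunits 6 rose and 2 fell, and the median was 0.29. *ppp1r15b*, a subunit that directs phosphatase to eIF2, had 24.5 and 16.7 CPM with SYP-3343 and 4.77 and 4.02 CPM in controls (2.23 ± 0.17, adjusted p = 3.24e-08). The list's other genes with the smallest adjusted p were *GCN1* (1.31 ± 0.10), an activator of the kinase of amino acid shortage, and *eif2ak1* (0.97 ± 0.10), the kinase that in mammals senses heme and mitochondrial stress. Of the 4 kinases *EIF2AK4* (0.47 ± 0.11), the one of amino acid shortage, also rose. The remaining risers of the list were *ppp1r15a* (1.11 ± 0.12, adjusted p = 2.19e-06) and *IMPACT* (0.57 ± 0.13, adjusted p = 0.00259). The calls of *EIF2AK4* and *IMPACT* ended with library sizes alone. *EIF2AK3*, the kinase of the endoplasmic reticulum, had -0.24 ± 0.10 and did not pass (adjusted p = 0.0742). The fallers were *dnajc3b* (-0.68 ± 0.11, adjusted p = 0.000173), a chaperone that inhibits some of these kinases in mammals, and *eif2ak2* (-0.75 ± 0.26, adjusted p = 0.0337), the kinase of double-stranded RNA. The call of *eif2ak2* ended by DESeq2 and without control replicate 2, replicate 1 of SYP-3343 or its replicate 2 (adjusted p 0.00377 to 0.237 over its alternatives). The genes of this list from *EIF2AK4* on were named after their values were seen. Of 24 genes in a list drawn up for the mTORC1 pathway, the MNK kinases included, 13 rose and 0 fell, with a median of 0.34. DESeq2 also called 0 lower, and an unadjusted p under 0.05 gave 1 below 0. Upper-quartile factors made 2 genes of this list lower and robust dispersions 1. *sesn2* (2.52 ± 0.11), *MKNK2* copy ENSDARG00000015164 (2.36 ± 0.11) and *TSC2* (0.81 ± 0.09) had the smallest adjusted p. Sestrin and TSC2 restrain mTORC1, and the kinase MNK2 phosphorylates eIF4E. Genes that are no brakes were called higher too, among them *RPTOR* (0.38), *rps6kb1a* (0.59) and *RPS6* (0.90). The calls of *RPTOR* and *rps6kb1a* ended with library sizes alone, that of *RPTOR* also without control replicate 1 or SYP-3343 replicate 1. *MTOR* (0.15), *MLST8* (-0.14), *rheb* (-0.12) and *rps6kb1b* (-0.17) did not pass. These genes were named after their values were seen, and whether the pathway was restrained was not tested.

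Of 10 genes of reinitiation, release and factors translated through upstream reading frames 6 rose and 0 fell (0 also by DESeq2 or an unadjusted p under 0.05), *DDIT3* (1.06 ± 0.10), *atf4b* (0.74 ± 0.10) and *atf4a* (0.70 ± 0.10) having the smallest adjusted p. Of 12 poly-A binding and cap partners 4 rose, such as *ABCE1* (0.56 ± 0.09), which recycles ribosomes, and *PABPC4* (0.58 ± 0.11), and 1 fell, the RNA helicase *DHX9* (-0.62 ± 0.09). Among elongation factors 8 of 13 rose and 3 fell, with a median of 0.75. *EEF1D* (1.07 ± 0.10), *EEF2* (0.89 ± 0.09) and *EEF1B2* (1.03 ± 0.12) had the smallest adjusted p among them, and *eef2b* (1.09 ± 0.16) the largest fold change. Of 9 factors of mitochondrial translation 0 rose and 2 fell, with a median of 0.01, namely *MTIF2* (-0.35 ± 0.12, adjusted p = 0.0322) and *GFM2* (-0.37 ± 0.12, adjusted p = 0.0277). *MRRF*, the ribosome recycling factor, had a log2 fold change of 0.20 and did not pass. An unadjusted p under 0.05 gave 0 above and 2 below 0, DESeq2 called 0 of the 9, and both calls also ended on leaving out replicate 2 of either group. These counts too depended on the scaling. With library sizes alone 6.05% of all genes tested were higher and 40.2% lower. The list of kinases then had 4 higher and 5 lower genes, that of mTORC1 10 and 5, and the poly-A partners 4 and 5. The reinitiation list then had 4 higher and 2 lower genes, the elongation factors 8 higher and 3 lower, and the mitochondrial factors 0 higher and 5 lower.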

How the data were processed

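The deposited table holds the authors' raw counts per gene for 4 libraries, as whole numbers that were not normalized. Poly-T beads selected the mRNA and a NEBNext Ultra kit made the libraries, per the labels' protocols. The submitters' processing notes name TopHat2, HISAT2, HTSeq, featureCounts 1.6.2, DESeq2 1.14.1 and the build GRCz11, without saying what each did. Annotation and strand setting: not given in the sources used here, so overlapping genes and antisense partners may share reads. Symbols came from a table of Ensembl identifiers, which gave one to 23607 of 25430 identifiers, and 7 symbols are shared by 14 of the members, which are then named with the identifier.

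Low counts were filtered with filterByExpr of edgeR at default settings, TMM set the scale, and genes were tested two-sided over the whole table with the quasi-likelihood F test and Benjamini-Hochberg adjustment (threshold 0.05). The SE is the log2 fold change over the root of F, and 95% intervals are not adjusted. The biological coefficient of variation was 10.1%. The members, lists, groups and alternatives were chosen with earlier results of these data known. Named were members with an adjusted p under 0.05 and a log2 fold change of 0.5 or more in size, the 4 of each factor group with the smallest adjusted p, their paralogs, and 3 genes of each list. Members outside the rule are named to account for all, and the ratios of summed counts were chosen after the values were seen. The test was tried first on simulated counts with few changed genes, up or down at random. These lacked the shift of scale between the groups seen here, so the trial does not bear on the choice of scaling. The alternatives took RLE factors, upper-quartile factors or library size alone, dropped the filter, or used DESeq2, limma-voom or robust dispersions, left out the 20 most abundant genes, took the replicate number as a block, or left out each library. Versions were edgeR 4.0.16, limma 3.58.1 and DESeq2 1.42.0 under R 4.3.3, with tables by pandas 2.3.3 and plots by matplotlib 3.10.9. Sequences and coordinates were not used here, and a planned motif search in promoters was not run.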

Additional observations from a re-analysis of the deposited data

How the results depend on the processing

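The number of higher initiation factor genes, 37, was 35 to 39 under RLE and upper-quartile factors, no filter, DESeq2, limma-voom, robust dispersions, without the 20 most abundant genes and with the replicate block, and 33 to 36 on leaving out 1 library. With library size alone it was 23. The number of lower members, 3, was 5 with upper-quartile factors, 16 with library size alone and 2 to 3 on leaving out 1 library. Of all genes tested, 3660 higher and 3353 lower calls became 1370 and 9114 with library size alone, where the share of calls that were higher was 59.0% for members (92.5% with TMM) and 13.1% for all genes (52.2% with TMM). Upper-quartile factors gave 87.5% for members and 40.3% for all genes. Among members called with TMM or with library size alone, the sign turned between them for 7, which had with library size alone these log2 fold changes: *EIF2S1* copy ENSDARG00000005827 (-0.27), *EIF3J* copies ENSDARG00000012603 (-0.075) and ENSDARG00000053370 (-0.32), *EIF4A3* (-0.23), *eif4a1a* (-0.30), *EIF4G2* copy ENSDARG00000020377 (-0.30) and *EIF4G3* copy ENSDARG00000077215 (-0.069). The median of all genes was -0.35 there and -0.01 with TMM. Same-numbered libraries did not deviate together (r = -0.0366 across genes). With 2 libraries per group this is a single correlation, and the labels do not say whether replicates were matched. It therefore cannot exclude a pairing. With the replicate block 37 members were higher and 2 lower, *EIF4H* being the call that ended. Where 1 library of a group was left out, its partner took the spread of the other group.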

Other observations

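The initiation factor genes together took 1.39% of all counts in each SYP-3343 library, against 1.15% and 1.13% in the controls. These shares carry the scaling by library size alone, under which all genes had a median log2 fold change of -0.35. Genes for eIF3 subunits took 0.576% and 0.588% of all counts with SYP-3343 and 0.404% and 0.398% in controls, and those for eIF2 subunits 0.164% and 0.158% with SYP-3343 and 0.0978% and 0.0942% in controls. The shares of eIF2B, eIF5A and the group of eIF5, eIF5B and eIF6 were also higher. Those of eIF1 and eIF1A (0.78-fold), the eIF4E family (0.75-fold), eIF4G (0.87-fold) and eIF4A with its cofactors (0.95-fold) were lower. The eIF4E-binding proteins, and eIF2A with eIF2D, overlapped between groups. The ratio between 2 groups of genes does not depend on that scaling. The counts of eIF3 genes were 5.81 and 6.24 times those of eIF4G genes with SYP-3343 and 3.78 and 3.43 times in controls. These 2 groups were chosen after their values were seen. Gene lengths cancel between the groups but not between the factors.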
